A study of Caenorhabditis elegans with 20 samples.

Results

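Genes for secreted neuropeptides and insulin-like peptides were followed across whole Caenorhabditis elegans grown with a working or a perturbed methionine/S-adenosylmethionine (Met/SAM) cycle. All genes whose WormBase symbol is flp-, nlp- or ins- followed by a number were taken, which gave 148 of the 39341 genes in the tables: 31 flp, 78 nlp and 39 ins genes. The first experiment held 8 libraries in 4 groups. These were Δnhr-114 animals with 25 mM methionine, untreated Δnhr-114 animals, wild type (WT) animals with methionine and untreated WT animals, all on Escherichia coli OP50 for 48 hours. The titles of these 8 samples carry the word soy, and their labels list no added vitamin B12. The paper describes growth medium made with soy peptone instead of bactopeptone. The second experiment held 12 libraries in 6 groups. Here Δmetr-1, metr-1(ww52);Δnhr-10 and WT animals were fed E. coli HT115 that carried an nhr-114 RNAi clone or the empty vector, all with 20 nM vitamin B12 for 48 hours. The deletion alleles were nhr-114(gk849), metr-1(ok521) and nhr-10(tm4695), and every strain, WT included, carried the wwIs24 Pacdh-1::GFP reporter with unc-119(+). Each group had 2 libraries of animals labelled L4. Animals of genotype metr-1(ww52);Δnhr-10 are called the double mutant from here on. The 2 nhr genes encode transcription factors of the nuclear hormone receptor family, while metr-1 encodes methionine synthase, so the comparisons ask how a receptor and an enzyme of the Met/SAM cycle bear on gene expression.

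The products of these genes are made as precursors and secreted. Many of the neuropeptides are cut and amidated inside dense-core vesicles and released to act at a distance. FMRFamide-like peptides (flp) and most other neuropeptide-like proteins (nlp) act through G protein-coupled receptors on neurons, muscle and intestine, and they tune locomotion, feeding, egg laying and sleep. Some nlp genes instead encode antimicrobial peptides of the epidermis, and the insulin-like peptides (ins) act on the single insulin receptor DAF-2, as agonists or antagonists, in growth, dauer entry and lifespan.

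All levels are CPM, that is, reads of a gene scaled to the same total in every library, with no term for gene length, from reads at the 3′ ends of transcripts. Library totals ran from 1389117 to 24482380 recovered reads in experiment 1 and from 2542155 to 16025927 in experiment 2. A count of 0 allows up to 3 reads, or 0.123 to 2.16 CPM depending on the library, and this covers counting error only. The targeted receptor went against its label in part of the second experiment. In the libraries labelled nhr-114 RNAi, nhr-114 stood at 193 and 7.94 CPM in Δmetr-1, 391 and 3.60 CPM in the double mutant and 340 and 2.30 CPM in WT, so replicate 1 was high in all 3 strains. On vector nhr-114 stood at 29.4 and 46.3 CPM in Δmetr-1, 37.4 and 33.7 CPM in the double mutant and 8.98 and 3.16 CPM in WT, below each of these replicate 1 libraries. Reads of the RNAi construct and transcripts of the gene itself cannot be told apart in these tables. Below, "on nhr-114 RNAi" names libraries by that label, and those of replicate 1 show no lower nhr-114 level. The counts of metr-1 were 372 and 468 CPM in Δmetr-1 on vector and 555 and 462 CPM in the double mutant on vector, against 59.8 and 69.4 CPM in WT on vector, and 3′ reads outside the mutated part do not check these labels. With the nhr-114 RNAi label, replicate 1 of Δmetr-1 held 30.3 CPM of metr-1 and replicate 2 held 45.7 CPM. For the double mutant it was 130 CPM in replicate 1 and 116 CPM in replicate 2. Both replicates of each mutant thus lay below the vector libraries of that strain. WT had 94.5 and 73.7 CPM, above its vector libraries. The paper reports that metr-1 mutants need nhr-114 to induce Met/SAM cycle genes. Whether nhr-114 was knocked down in replicate 1 was not tested. Lists of stage markers also moved between libraries. The summed level of 13 oocyte genes ranged from 371 to 5840 CPM and that of 19 cuticle and molting genes from 684 to 12767 CPM, and replicates of 1 group could lie at both ends, as with 5840 and 773 CPM of oocyte genes in Δmetr-1 on vector. In whole-animal RNA, a change in the number of cells of a type and a change in RNA per cell cannot be told apart.

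The 3 families differed in how much RNA they gave. Here 6 flp, 18 nlp and 0 ins genes averaged 100 CPM or more over the 20 libraries, and the median member stood at 48.1 CPM in flp, 20.6 CPM in nlp and 3.33 CPM in ins. The intestinal gene nlp-40, whose peptide times the defecation cycle, was the highest member (mean 1085 CPM), followed by nlp-24, nlp-33 and nlp-36 at 767, 645 and 480 CPM. These 4 genes made up 17.2%, 12.1%, 10.203% and 7.59% of the nlp total. Among flp genes the highest means were 280 CPM for flp-28, 224 CPM for flp-9, 159 CPM for flp-11, 147 CPM for flp-18, 112 CPM for flp-33 and 102 CPM for flp-13. FLP-11 and FLP-13 are sleep-promoting peptides of the RIS and ALA neurons, and FLP-18 acts on locomotion and fat through several receptors of the neuropeptide Y type. The highest ins genes were ins-27, ins-17, ins-28, ins-4, ins-30 and ins-29, with means of 58.6, 51.2, 40.4, 35.4, 33.4 and 23.4 CPM. Of all members, 115 passed the low-value filter (at least 5 CPM in 2 or more libraries) in experiment 1 and 117 in experiment 2, 30 flp in each, 65 and 67 nlp, and 20 ins in each. The 30 members that passed in neither were 18 ins genes, 11 nlp genes and flp-23. They include nlp-22, a sleep peptide gene of the larval molts, at no more than 0.125 CPM in any library, and ins-39, at no more than 2.16 CPM.

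Many members lie side by side in the genome (WBcel235). With clusters defined by neighbours at most 20000 bases apart, 6 insulin-like genes, ins-2, ins-3, ins-4, ins-5, ins-6 and ins-20, share chromosome II between 5988524 and 6011321. A further 7, ins-24 to ins-30, share chromosome I between 14012369 and 14037777. The antimicrobial genes nlp-34, nlp-31, nlp-30, nlp-29, nlp-28 and nlp-27 lie on chromosome V between 3978825 and 3989770, and flp-28, flp-3 and flp-2 lie together on X between 10087314 and 10095245. Clusters of 4 genes each are ins-38, ins-13, ins-12 and ins-11 on II and nlp-45, nlp-22, nlp-23 and nlp-2 on X. By chromosome, 13 of 31 flp genes are on X and 26 of 39 ins genes on II or I (16 and 10). In all, 33 members (9 flp, 20 nlp, 4 ins) overlap another protein-coding gene, among them flp-28, nlp-21, nlp-24 and flp-11. No source used here says if reads were assigned by strand, and the values of these members may hold reads of the overlapping gene.

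The summed level of every family was highest in the pair of metr-1 mutant strains on nhr-114 RNAi. The tested flp genes together gave 3352 and 3978 CPM in Δmetr-1 on nhr-114 RNAi, against 1312 and 1984 CPM in Δmetr-1 on vector. Double mutants gave 3516 and 4030 CPM on nhr-114 RNAi, against 1841 and 1873 CPM on vector. In WT they gave 1551 and 1310 CPM on nhr-114 RNAi, against 1570 and 1275 CPM on vector. Both mutant RNAi groups thus lay above all 8 other libraries of the experiment. The nlp sum was 9245 and 8583 CPM in Δmetr-1 on nhr-114 RNAi, against 4594 and 5588 CPM on vector, and 8632 and 8407 CPM in the double mutant on nhr-114 RNAi, against 5716 and 5317 CPM on vector. The ins sum was 479 and 627 CPM in Δmetr-1 on nhr-114 RNAi, against 182 and 418 CPM on vector, and 588 and 516 CPM in the double mutant on nhr-114 RNAi, against 366 and 386 CPM on vector. Summed nlp and ins levels of these mutant RNAi libraries also lay above every other library of the experiment. The sums are given as a description, with no test.

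**Figure D1:**
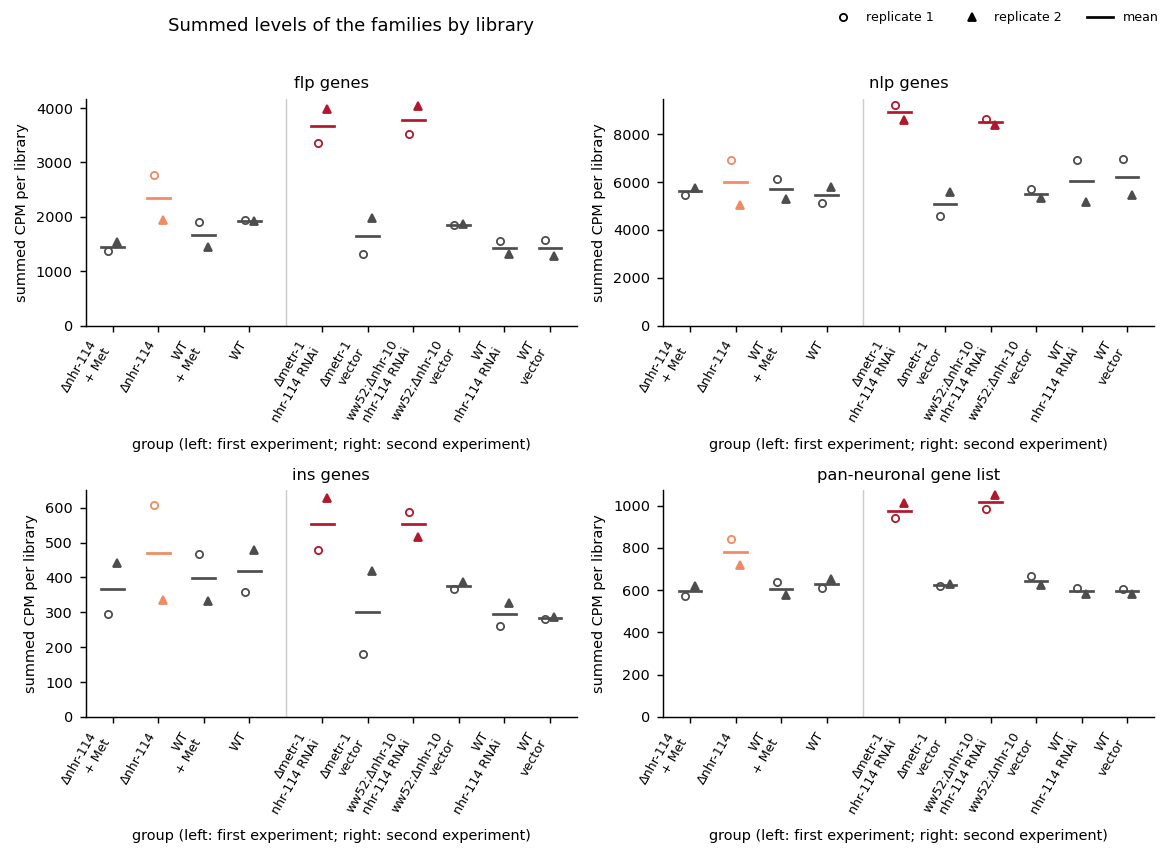
Summed CPM (y axis, from 0) of the tested flp, nlp and ins genes and of a fixed list of 15 pan-neuronal genes in each library, with groups along the x axis. Open circles are replicate 1, triangles replicate 2 and bars the mean; the metr-1 mutants on nhr-114 RNAi are red, untreated Δnhr-114 orange, and ww52;Δnhr-10 stands for the double mutant. The red flp points sit between 3352 and 4030 CPM, above all other points of that panel.

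The summed level of general neuronal genes was also higher in these libraries. A list of 15 pan-neuronal genes (all 15 above 0 in every library) summed to 940 and 1014 CPM in Δmetr-1 on nhr-114 RNAi, against 619 and 629 CPM on vector. The double mutant list sum was 985 and 1048 CPM on nhr-114 RNAi, against 666 and 626 CPM on vector, and WT stayed between 582 and 609 CPM. The flp sum divided by the pan-neuronal sum was 3.57 and 3.92 in Δmetr-1 on nhr-114 RNAi and 3.57 and 3.84 in the double mutant on nhr-114 RNAi, against 2.12 to 3.15 in the other 8 libraries of the experiment. For nlp the same ratio was 8.02 to 9.84 in these mutant RNAi libraries and 7.42 to 11.5 in the others, and for ins 0.492 to 0.619 against 0.293 to 0.664. Only the flp ratio therefore lay outside the range of the other libraries. Over all libraries the intestinal nlp-40 made up 17.2% of the nlp total and nlp-24 12.1%, so abundant genes weigh on the nlp ratio. By member, the median changes on nhr-114 RNAi against vector were close. They were 1.08 log2 for flp and 1.05 for nlp in Δmetr-1, and 0.87 and 0.83 in the double mutant. Set per pan-neuronal RNA, the flp family was 0.53 (Δmetr-1) and 0.36 (double mutant) higher on the log2 scale on nhr-114 RNAi than on vector, against 1.18 and 1.02 for the plain sum. The body wall muscle, intestine and hypodermis lists did not follow the neuronal one, and their sums and medians differed. Some other lists were higher. The caenacins, antimicrobial genes of the epidermis, summed to 429 to 870 CPM in Δmetr-1 on nhr-114 RNAi, against 245 to 285 CPM on vector. In the double mutant they summed to 346 to 513 CPM on nhr-114 RNAi, against 167 to 249 CPM on vector. Sperm and vitellogenin sums are given below. The 8 body wall muscle genes summed to 8725 and 8624 CPM in Δmetr-1 on nhr-114 RNAi, against 16527.5 and 15427 CPM on vector, and to 9023 and 7095 CPM in the double mutant on nhr-114 RNAi, against 14201 and 9541 CPM on vector. The myosin heavy chain gene unc-54 was the only one of them called (-2.86 log2 in Δmetr-1), and the list medians were 0.22 and -0.01 log2. The 10 intestine genes summed to 5395 and 5491 CPM in Δmetr-1 on nhr-114 RNAi, against 5214 and 7501 CPM on vector, and to 4840 and 5259 CPM in the double mutant on nhr-114 RNAi, against 6717 and 6836 CPM on vector, with medians of 0.03 and -0.02 log2 over 9 tested genes. The 7 hypodermis genes summed to 466 and 393 CPM in Δmetr-1 on nhr-114 RNAi, against 445 and 626 CPM on vector, and to 458 and 397 CPM in the double mutant on nhr-114 RNAi, against 645 and 570 CPM on vector, with medians of -1.09 and -0.71 log2. Muscle sums in both mutants, and intestine and hypodermis sums in the double mutant, were thus lower without overlap. The part of these lists in the changes of the members was not tested.

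The comparison of nhr-114 RNAi with vector within each metr-1 mutant was designed to ask how loss of nhr-114 bears on animals with a defective cycle, although 1 of the 2 RNAi libraries in each mutant had a higher nhr-114 level than the vector libraries. In Δmetr-1, 110 of the 117 tested members had a higher level on nhr-114 RNAi than on vector, with a median log2 change of 1.05. Among all 11543 tested genes 46.3% were higher, with a median of -0.11. A call required an adjusted p under 0.01 (limma, Benjamini-Hochberg over all tested genes) and a fold change over 1.5. By this rule 16 members rose (6 flp, 7 nlp, 3 ins) and 1 ins gene fell. Of all genes 1.52% rose and 11% fell, while edgeR called 3.66% higher and 9.85% lower and DESeq2 6.45% and 14.6%. Those that rose were flp-3, flp-9, flp-17, flp-18, flp-22 and flp-28, nlp-3, nlp-6, nlp-9, nlp-18, nlp-21, nlp-47 and nlp-80, and ins-1, ins-3 and ins-20. In the double mutant, 106 of 117 members were higher on nhr-114 RNAi (median 0.82 log2; 45.9% and -0.09 log2 over all genes). There 5 members rose, flp-17, flp-18, flp-28, nlp-21 and ins-20, and 0 fell, where 1.39% of all genes rose and 3.38% fell (5.17% and 6.0% by DESeq2). All 5 were also called in Δmetr-1, which makes them 5 of 5 and 5 of 17 of the lists.

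Of the 3 families, flp had the largest share of members whose groups did not overlap. In Δmetr-1, both nhr-114 RNAi libraries lay above both vector libraries for 29 of 30 flp genes, 55 of 67 nlp genes and 11 of 20 ins genes, and for 28.6% of all genes. The same held in the double mutant for 29 of 30 flp, 50 of 67 nlp and 15 of 20 ins genes, and for 29.8% of all genes. The exception among flp genes was flp-34 in both strains. The family medians in Δmetr-1 were 1.08 log2 for flp, 1.05 for nlp and 0.80 for ins, and in the double mutant 0.87, 0.83 and 0.54.

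**Figure D2:**
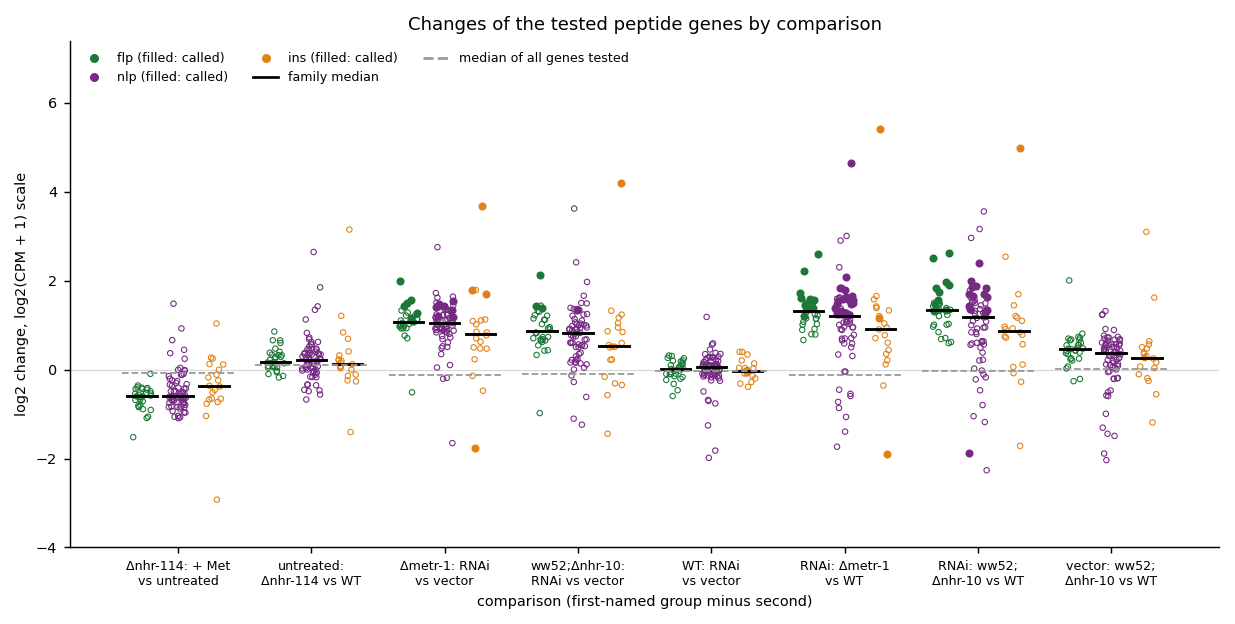
Log2 change of each tested member (y axis, log2(CPM + 1) scale, first-named group minus second) in 8 comparisons along the x axis. Points are genes coloured by family, filled where called; black bars are family medians and dashed lines the median of all tested genes. In the RNAi comparisons of the metr-1 mutants the black bars lie between 0.54 and 1.35, and in WT between -0.03 and 0.06.

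The gene flp-18 had the largest rise of the flp family. It stood at 292 and 414 CPM in Δmetr-1 on nhr-114 RNAi, against 61.7 and 121 CPM on vector (log2 change 1.99 ± 0.35 SE, limma adjusted p = 0.00312). Double mutants had 322 and 388 CPM on nhr-114 RNAi, against 62.5 and 101 CPM on vector (2.14 ± 0.35, limma adjusted p = 0.00485). In WT the levels were 63.4 and 51.0 CPM on nhr-114 RNAi, against 55.5 and 51.7 CPM on vector, and all 4 mutant RNAi libraries lay above the rest. The gene flp-17, which the BAG neurons use to inhibit egg laying, had 63.1 and 64.5 CPM in Δmetr-1 on nhr-114 RNAi, against 23.1 and 29.2 CPM on vector (1.26 ± 0.26, limma adjusted p = 0.00679). It had 78.4 and 77.3 CPM in the double mutant on nhr-114 RNAi, against 30.3 and 28.4 CPM on vector (1.38 ± 0.26, limma adjusted p = 0.00868), with close replicates in all 4 groups. The most abundant flp gene, flp-28, had 425 and 605 CPM in Δmetr-1 on nhr-114 RNAi, against 214 and 241 CPM on vector. Double mutants had 471 and 634 CPM on nhr-114 RNAi, against 191 and 210 CPM on vector. Both differences were called (1.16 and 1.44 log2). The sleep genes flp-11 and flp-13 had the same direction without a call. For flp-11 the levels were 268 and 235.2 CPM in Δmetr-1 on nhr-114 RNAi, against 63.1 and 166 CPM on vector (1.28 ± 0.36, limma adjusted p = 0.0261), the vector replicates lying far apart. The genes flp-1, flp-14 and flp-21 differed by 0.98, 1.06 and 1.09 log2 in Δmetr-1 and by 0.68, 0.62 and 0.74 log2 in the double mutant, none of them called. FLP-1 is known for its part in locomotion and FLP-21 as a ligand of the receptor NPR-1.

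Among the nlp genes, nlp-21 was the only one called in both mutants. It stood at 144 and 185 CPM in Δmetr-1 on nhr-114 RNAi, against 54.4 and 74.2 CPM on vector, and at 140 and 144 CPM in the double mutant on nhr-114 RNAi, against 56.6 and 54.9 CPM on vector. The changes were 1.35 ± 0.24 and 1.33 ± 0.24 log2 (limma adjusted p = 0.0029 and 0.00636). The gene nlp-47, which encodes a peptide related to gonadotropin-releasing hormone, had 276 and 418 CPM in Δmetr-1 on nhr-114 RNAi, against 103 and 132 CPM on vector (1.54 ± 0.33, limma adjusted p = 0.00777). The egg-laying gene nlp-3 had 103 and 128 CPM in Δmetr-1 on nhr-114 RNAi, against 32.6 and 53.3 CPM on vector (1.44 ± 0.30, limma adjusted p = 0.00631). In neither case did the groups overlap. The cholecystokinin-like gene nlp-12 had 78.7 and 65.2 CPM in Δmetr-1 on nhr-114 RNAi, against 21.2 and 36.5 CPM on vector, which was not called (1.33 ± 0.51, limma adjusted p = 0.0752). None of the 6 highest nlp genes was called in this comparison, and their differences varied. The intestinal nlp-40 had 1366 and 1777 CPM in Δmetr-1 on nhr-114 RNAi, against 969 and 1073 CPM on vector (0.61 ± 0.24, limma adjusted p = 0.0854), and nlp-36 had 424 and 561 CPM, against 424 and 485 CPM on vector. For nlp-24 and nlp-33 the differences were -0.21 and -0.19 log2. They were 1.05 log2 for nlp-49 (limma adjusted p = 0.0205) and 1.35 log2 for nlp-27 (limma adjusted p = 0.159), beside a family median of 1.05.

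**Figure D3:**
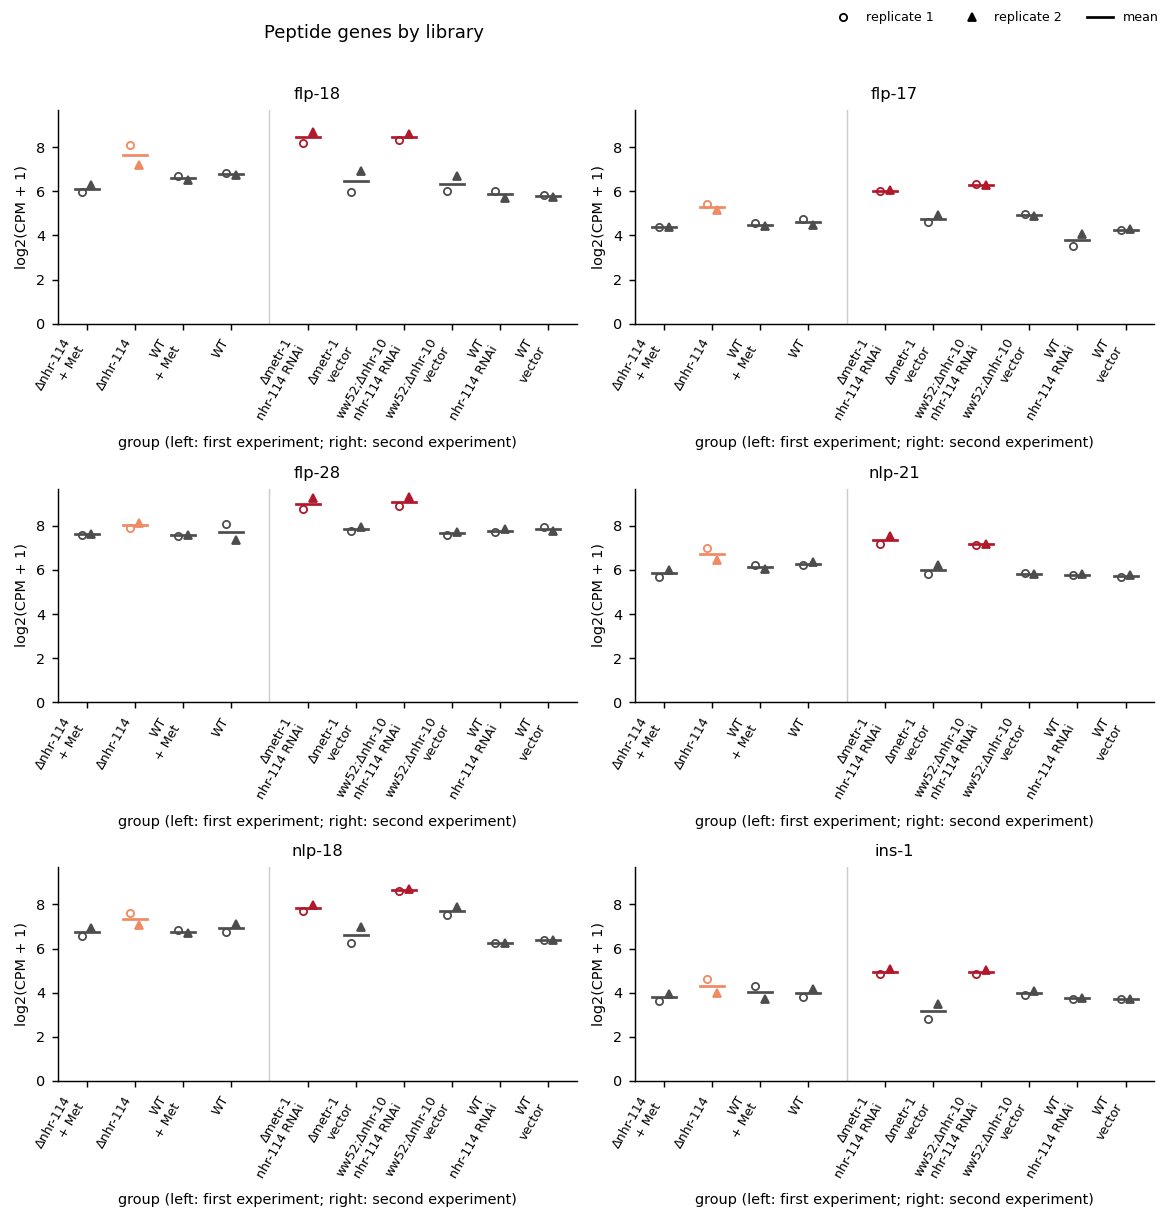
Levels of flp-18, flp-17, flp-28, nlp-21, nlp-18 and ins-1 in each library as log2(CPM + 1) (y axis), with groups along the x axis. Open circles are replicate 1, triangles replicate 2 and bars the mean; the metr-1 mutants on nhr-114 RNAi (red) lie above their vector groups for each gene, and untreated Δnhr-114 animals are orange.

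The insulin-like gene ins-20 changed most of all members. Its gene spans chromosome II from 6010844 to 6011321 on the forward strand. In Δmetr-1 it had 43.2 and 61.4 CPM on nhr-114 RNAi, against 6.45 and 1.25 CPM on vector (3.68 ± 0.69 log2, limma adjusted p = 0.00436). In the double mutant it had 38.7 and 37.02 CPM on nhr-114 RNAi, against 0 and 3.49 CPM on vector (4.20 ± 0.69, limma adjusted p = 0.00512), where the value of 0 comes from the library with 2542155 reads and allows up to 1.18 CPM. In WT it had 0.311 and 0.148 CPM on nhr-114 RNAi, or 2 reads in each library, against 0.477 and 0.574 CPM on vector. The gene was therefore near the detection limit in WT and clearly counted, with 185 to 851 reads, in each mutant RNAi library.

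Its neighbours in the chromosome II cluster differed less. The gene ins-3 had 20.4 and 19.3 CPM in Δmetr-1 on nhr-114 RNAi, against 3.89 and 7.41 CPM on vector, a rise of 1.70 ± 0.33 log2 (limma adjusted p = 0.00473). The agonist gene ins-4 had 43.3 and 53.0 CPM in Δmetr-1 on nhr-114 RNAi, against 7.54 and 22.4 CPM on vector (1.79 ± 0.45, limma adjusted p = 0.016). The agonist gene ins-6, which with ins-4 opposes dauer entry, had 23.4 and 29.3 CPM, against 10.1 and 13.3 CPM on vector (1.11 ± 0.27, limma adjusted p = 0.0138). The same 3 genes in the double mutant differed by 1.33, 1.05 and 0.50 log2, none called. Away from the cluster, ins-1, a DAF-2 antagonist used in sensory learning, had 27.9 and 32.2 CPM in Δmetr-1 on nhr-114 RNAi, against 6.08 and 10.16 CPM on vector (1.80 ± 0.29, limma adjusted p = 0.00191). The intestinal agonist gene ins-7 had 14.4 and 17.5 CPM, against 12.2 and 10.16 CPM on vector, and did not pass the test (0.48 ± 0.44, limma adjusted p = 0.425). The antagonist genes ins-17 and ins-18 differed by 1.09 and 1.02 log2 in Δmetr-1 and by 0.52 and 0.60 log2 in the double mutant, also without a call. Of the other ins genes fixed for description, ins-11, ins-33 and ins-35 showed wide gaps between replicates in untreated Δnhr-114 animals, at 15.03 and 1.17 CPM, 13.8 and 5.15 CPM, and 40.03 and 3.98 CPM, and none was called in any comparison by limma on all libraries of an experiment.

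**Figure D4:**
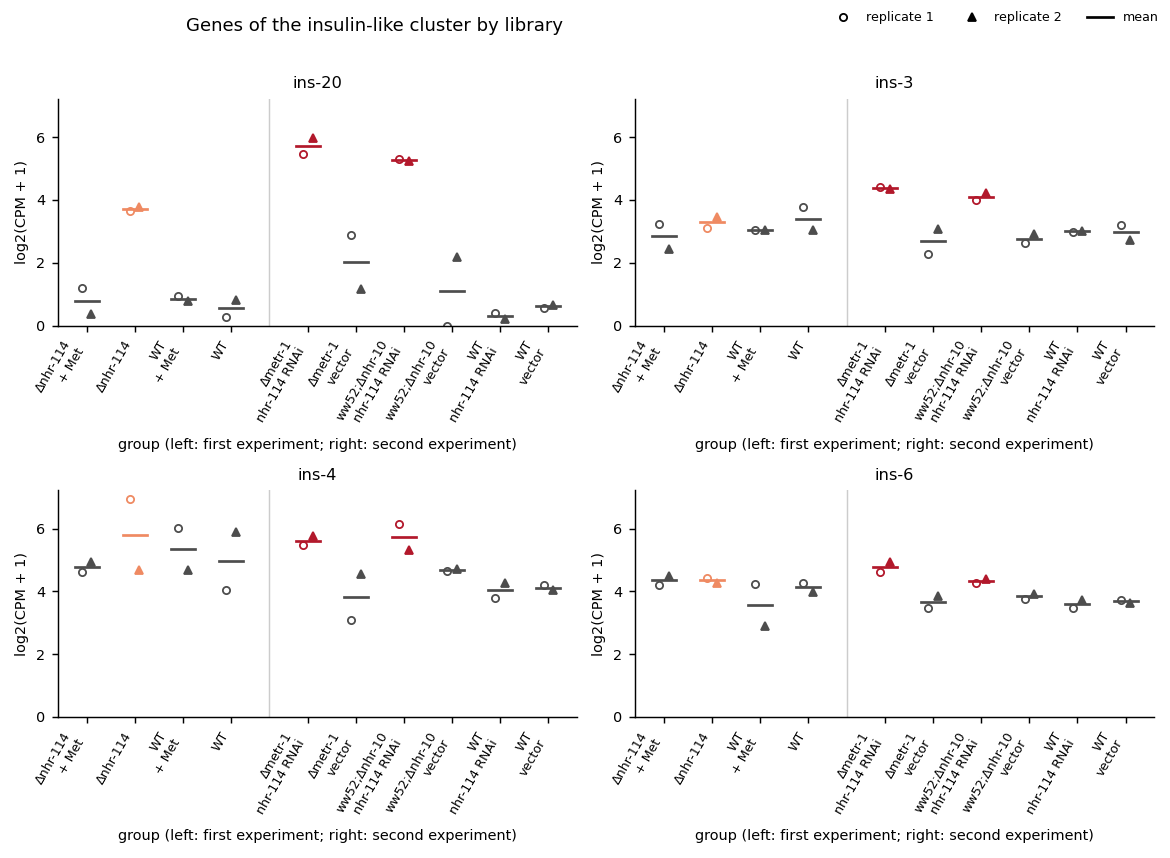
Levels of ins-20, ins-3, ins-4 and ins-6 from the chromosome II cluster in each library as log2(CPM + 1) (y axis), with groups along the x axis; symbols are replicates, bars the mean, red the metr-1 mutants on nhr-114 RNAi and orange untreated Δnhr-114. For ins-20 both red groups and the orange group stand clear of all other libraries of their experiment, with 38.7 CPM and 37.02 CPM in the double mutant RNAi libraries.

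A few members ran the other way. The gene ins-37 was the only member called lower in Δmetr-1 on nhr-114 RNAi than on vector. It had 1.44 and 1.59 CPM on nhr-114 RNAi, against 11.8 and 4.66 CPM on vector (-1.76 ± 0.39, limma adjusted p = 0.00892). Double mutants had 1.88 and 1.80 CPM on nhr-114 RNAi, against 7.08 and 6.36 CPM on vector (-1.44 ± 0.39, limma adjusted p = 0.0352). The gene nlp-4 had 0.271 and 1.23 CPM in Δmetr-1 on nhr-114 RNAi, against 5.72 and 3.16 CPM on vector (-1.65 ± 0.41, limma adjusted p = 0.0155). It had 0.418 and 0.644 CPM in the double mutant on nhr-114 RNAi, against 1.97 and 3.37 CPM on vector. For both genes the mutant RNAi libraries were the 4 lowest of the experiment. Most sperm genes were lower as well: of 8 tested sperm markers, 5 fell in Δmetr-1 and 3 in the double mutant in this comparison, with medians of -1.91 and -1.45 log2. The summed level of all 10 listed sperm genes did not go that way, with 1283 and 1063 CPM in Δmetr-1 on nhr-114 RNAi, against 714 and 979.5 CPM on vector, and 783 and 1168 CPM in the double mutant on nhr-114 RNAi, against 858 and 1046 CPM on vector. Their part in the change of ins-37 and nlp-4 was not tested. For flp-34 the vector libraries were high and variable, with 39.4 and 39.6 CPM in Δmetr-1 on nhr-114 RNAi, against 80.0 and 40.04 CPM on vector, and 45.6 and 36.5 CPM in the double mutant on nhr-114 RNAi, against 142 and 46.5 CPM on vector.

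The mutants were next set against WT on the same RNAi clone, which shares its mutant libraries with the comparisons above. In Δmetr-1, 31 members were higher on nhr-114 RNAi than in WT and 1 was lower (11 flp, 18 nlp and 2 ins higher, ins-37 lower), where 5.87% of all genes were called higher and 10% lower (8.6% and 9.28% by edgeR, 12.2% and 12.9% by DESeq2). In the double mutant, 25 were higher and 1 lower (10 flp, 14 nlp and 1 ins higher, nlp-4 lower), where 5.17% of all genes were called higher and 7.10% lower. Both comparisons use the same WT libraries. The medians over all members were 1.20 and 1.21 log2, beside -0.12 and -0.02 log2 over all genes. Both mutant libraries lay above both WT libraries for 30 of 30 flp genes in each strain, for 53 (Δmetr-1) and 49 (double mutant) of 67 nlp genes and for 16 and 13 of 20 ins genes, where this held for 31.6% and 32.6% of all genes.

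Of the called members, ins-20 differed most from WT in both strains (5.42 and 4.98 log2), and among flp genes flp-18 and flp-17 did. For flp-17, the levels of 63.1 and 64.5 CPM in Δmetr-1 animals and 78.4 and 77.3 CPM in the double mutant compare with 10.6 and 15.7 CPM in WT on nhr-114 RNAi (2.22 ± 0.26 and 2.50 ± 0.26 log2, limma adjusted p = 0.000336 and 0.000448). For flp-18 the changes were 2.59 and 2.62 log2. The gene nlp-18 had 204 and 250 CPM in Δmetr-1 animals and 382 and 415 CPM in the double mutant on nhr-114 RNAi, against 74.3 and 74.0 CPM in WT on nhr-114 RNAi, so that the double mutant stood highest (1.59 and 2.41 log2). The genes nlp-8 and flp-14 were called in both strains, at 1.32 and 1.34 log2 and at 1.39 and 1.35 log2. The stress- and arousal-linked pair nlp-49 and flp-2 were also called in both, at 1.25 and 1.31 log2 and at 1.37 and 1.56 log2. Called in both strains as well were flp-3, flp-6, flp-9, flp-24, flp-28, nlp-6, nlp-9, nlp-11, nlp-21, nlp-47, nlp-51, nlp-52, nlp-56, nlp-59 and nlp-81. Called in Δmetr-1 alone were flp-22, flp-32, nlp-3, nlp-5, nlp-19, nlp-28, nlp-80 and ins-6, and in the double mutant alone flp-27 and nlp-68. The difference between the strains was not tested for these. For nlp-24, an opioid-like peptide gene that acts in feeding, the levels were 736 and 338 CPM in Δmetr-1 animals and 786 and 454 CPM in the double mutant, against 802 and 847 CPM in WT on nhr-114 RNAi, below WT in each library and not called (-0.72 and -0.46 log2).

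The number of calls rested on single libraries. No called member, and no member with the smallest p of its family, changed its direction in that comparison when any 1 library was left out. Other members were not part of this check. With the full set, 17 members were called for nhr-114 RNAi in Δmetr-1, 5 for nhr-114 RNAi in the double mutant, 32 for Δmetr-1 against WT and 26 for the double mutant against WT. Leaving out a library leaves its group with 1 sample, assumed to vary like the others. The share of all genes called in each of these fits is not given here. The counts therefore do not say if calls changed for the members or for all genes. Without Δmetr-1 vector replicate 1, the library with high oocyte and low cuticle RNA, the counts were 3, 14, 51 and 46, and without replicate 2 of that group they were 40, 14, 52 and 46. Without Δmetr-1 nhr-114 RNAi replicate 1 they were 0, 3, 10 and 19, and without replicate 2 0, 3, 3 and 19. Without double mutant nhr-114 RNAi replicate 1 they were 11, 0, 21 and 10, and without replicate 2 10, 0, 21 and 2. Leaving out either vector library of the double mutant gave 7, 0, 18 and 18. Without WT nhr-114 RNAi replicate 1 they were 13, 3, 6 and 7, and without replicate 2 12, 3, 5 and 2. Leaving out WT vector replicate 1 gave 9, 1, 23 and 23, and replicate 2 gave 9, 1, 23 and 22. Without the 3 replicate 1 libraries labelled nhr-114 RNAi in which nhr-114 was high, 0 members were called in all 4, while the medians stayed at 1.13, 0.87, 1.41 and 1.34 log2.

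With the oocyte and the cuticle lists as covariates 0 members were called in these 4 comparisons, and the member medians were -1.44, -0.11, -0.81 and -0.05 log2. The same fit called 0 of all tested genes. The genes of these lists differed in the same comparisons, while their sums overlapped in part. The medians of the 13 oocyte genes were -3.64, -0.92, -2.98 and -2.13 log2 in the 4 comparisons, with 5, 0, 1 and 0 of them called lower, and those of 18 cuticle and molting genes were -1.20, -1.55, -1.52 and -0.16 log2, with 0 called. Oocyte sums were 803 and 2092 CPM in Δmetr-1 animals and 488 and 2541 CPM in the double mutant on nhr-114 RNAi, against 1450 and 1209 CPM in WT on nhr-114 RNAi. On vector they were 5840 and 773 CPM in Δmetr-1 animals and 511 and 682 CPM in the double mutant, so the groups overlapped in all 4 comparisons. Cuticle sums were 3059 and 713 CPM in Δmetr-1 animals and 8108 and 1691 CPM in the double mutant on nhr-114 RNAi, against 8431 and 12538 CPM in WT on nhr-114 RNAi, and on vector 781 and 12767 CPM in Δmetr-1 animals and 11469 and 9845 CPM in the double mutant. They overlapped for nhr-114 RNAi in Δmetr-1 and were lower without overlap in the other 3 comparisons. The 6 vitellogenin genes summed to 3245 and 5518 CPM in Δmetr-1 on nhr-114 RNAi, against 3264 and 64.01 CPM on vector. Their sum was 345 and 3423 CPM in the double mutant on nhr-114 RNAi, against 159 and 122 CPM on vector.

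The antimicrobial cluster on chromosome V held 1 called gene. Of its 6 genes it was nlp-28, called in Δmetr-1 against WT on nhr-114 RNAi, at 382 and 405 CPM against 14.2 and 15.2 CPM (4.65 ± 0.97 log2, limma adjusted p = 0.00882). In the double mutant on nhr-114 RNAi it stood at 188 and 180 CPM (3.56 ± 0.97, limma adjusted p = 0.0309). On vector, however, it ran at 171 and 18.7 CPM in Δmetr-1, 9.05 and 21.3 CPM in the double mutant and 107 and 27.3 CPM in WT, so the replicates differed several-fold. Its neighbour nlp-27 was 458 and 422 CPM in Δmetr-1 animals and 382 and 627 CPM in the double mutant, against 67.7 and 42.6 CPM in WT on nhr-114 RNAi, just short of a call (3.01 and 3.16 log2, limma adjusted p = 0.0107 and 0.0103). In the other direction, nlp-30 of the same cluster was 158 and 42.1 CPM in Δmetr-1 animals and 110 and 17.5 CPM in the double mutant, against 293 and 160 CPM in WT on nhr-114 RNAi (-1.39 and -2.26 log2, not called). For nlp-29, nlp-31 and nlp-34 the changes were 2.30, 1.06 and -0.54 log2 in Δmetr-1 and 1.33, -0.02 and -1.05 log2 in the double mutant, without a call. Members of the cluster were among the most variable of all: the SD between replicates was 1.11 log2 for nlp-28 and 1.08 for nlp-30 in the second experiment, beside a median of 0.411 for nlp genes, 0.378 for flp genes and 0.43 for ins genes. Of the caenacins, the related epidermal antimicrobial genes, cnc-7 was called higher in Δmetr-1 (4.43 log2) and in the double mutant (3.46 log2) against WT on nhr-114 RNAi, and in Δmetr-1 on nhr-114 RNAi against vector (2.65 log2), as 1 of 6 tested each time.

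**Figure D5:**
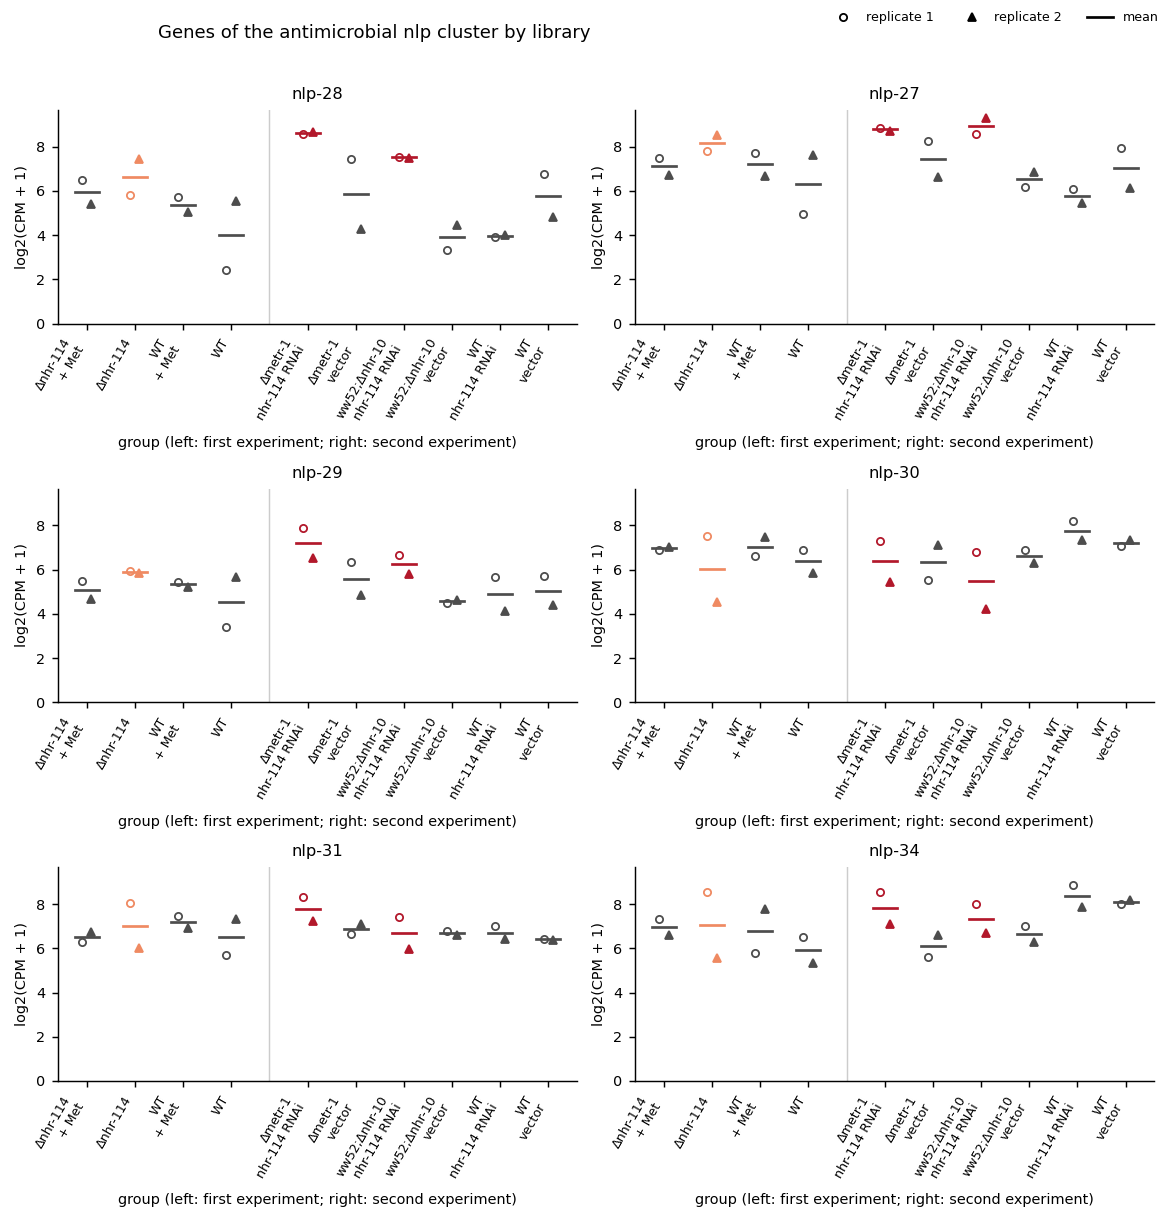
Levels of nlp-28, nlp-27, nlp-29, nlp-30, nlp-31 and nlp-34 in each library as log2(CPM + 1) (y axis), with groups along the x axis; symbols are replicates, bars the mean, red the metr-1 mutants on nhr-114 RNAi and orange untreated Δnhr-114. Replicates of a group are often far apart, as with 171 CPM and 18.7 CPM of nlp-28 in Δmetr-1 on vector.

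On the empty vector, limma called 0 of 117 members in Δmetr-1 against WT (0.113% of all genes) and 0 in the double mutant against WT (0.260% of all genes). At an unadjusted p under 0.05 there were 6 and 16 members, edgeR called 0 and 0, and DESeq2 called nlp-67 in the first and flp-34 in the second. Some unchanged genes also pass an unadjusted cut. As the share of all genes passing it is not given here, these counts are not read as a result. The member medians were 0.13 and 0.39 log2, beside 0.10 and 0.02 log2 over all genes. In the double mutant, both vector libraries lay above both WT libraries for 15 of 30 flp, 30 of 67 nlp and 9 of 20 ins genes, and for 26.8% of all genes. The member nearest to a call was nlp-18, with 181 and 237 CPM in the double mutant, against 83.7 and 81.6 CPM in WT on vector (1.32 ± 0.27, limma adjusted p = 0.0701). The gene flp-34 had 142 and 46.5 CPM in the double mutant and 80.0 and 40.04 CPM in Δmetr-1, against 23.1 and 16.4 CPM in WT on vector (2.01 ± 0.52 and 1.49 ± 0.52 log2, limma adjusted p = 0.161 and 0.473). It was thus above WT in all 4 mutant libraries and was the flp gene with the smallest p in both strains. In the other direction, nlp-67 had 10.6 and 16.6 CPM in Δmetr-1 animals and 16.1 and 24.5 CPM in the double mutant, against 55.7 and 59.8 CPM in WT on vector (-2.04 ± 0.46 and -1.49 ± 0.46 log2, limma adjusted p = 0.163 and 0.241). The smallest p of the ins family belonged to ins-20 in Δmetr-1 (1.42 log2) and to ins-23 in the double mutant, which had 1.18 and 1.498 CPM, against 3.53 and 5.24 CPM in WT on vector (-1.19 ± 0.31, limma adjusted p = 0.16).

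In WT animals no member passed the test between nhr-114 RNAi and vector. Limma called 0 of 117 members and 0% of all genes, 0 members had an unadjusted p under 0.05, and edgeR and DESeq2 called 0 as well. The family medians were 0.02 log2 for flp, 0.06 for nlp and -0.03 for ins. The members with the smallest p were nlp-27 (-1.25 log2), flp-17 (-0.46 log2) and ins-23 (-0.39 log2).

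Whether the RNAi effect differed between a mutant and WT was tested as an interaction. Limma called 0 members for Δmetr-1, where 0.0347% of all genes were called, and 0 for the double mutant, where 0.0173% were called. At an unadjusted p under 0.05 there were 50 and 31 members, edgeR called 0 in each and DESeq2 called 5 in each. For these counts the share of all genes is not given here, so they do not set the members against all genes. The members with the smallest p in each family were flp-17 (1.73 ± 0.37 log2, limma adjusted p = 0.0292), ins-1 (1.76 ± 0.41, 0.0343) and nlp-21 (1.28 ± 0.33, 0.0486) for Δmetr-1, and flp-17 (1.84 ± 0.37, 0.0471), ins-20 (4.51 ± 0.97, 0.0523) and nlp-21 (1.27 ± 0.33, 0.0773) for the double mutant. The genes called by DESeq2 were flp-17, ins-20, nlp-27 and nlp-28 in both strains, with ins-1 in Δmetr-1 and nlp-26 in the double mutant. Without Δmetr-1 vector replicate 2, limma called 7 members for Δmetr-1.

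The first experiment asked what methionine does to Δnhr-114 and WT animals. Limma called 0 of 115 members, and 0% of all 10948 tested genes, in each of its 5 comparisons. Unadjusted p values under 0.05 were found for 16 members for methionine in Δnhr-114, 4 for untreated Δnhr-114 against WT and 0 for methionine in WT. There were 0 for Δnhr-114 against WT with methionine and 2 for the interaction. The share of all genes under this cut is not given here, so these counts are not read as a result. DESeq2 called ins-20 for methionine in Δnhr-114 and for untreated Δnhr-114 against WT and none elsewhere, and edgeR called none.

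Levels in Δnhr-114 animals were nevertheless lower with methionine for most members. The medians were -0.60 log2 for flp, -0.59 for nlp and -0.37 for ins, beside -0.07 over all genes, and 12 of 115 members were higher. Both methionine libraries lay below both untreated libraries for 24 of 30 flp, 37 of 65 nlp and 6 of 20 ins genes, and for 18.7% of all genes. In WT this held for 10 of 30 flp, 12 of 65 nlp and 0 of 20 ins genes, and for 10.4% of all genes. Replicate 2 of WT with methionine held only 1389117 reads. Untreated Δnhr-114 libraries lay above both untreated WT libraries for 9 of 30 flp, 16 of 65 nlp and 5 of 20 ins genes, and for 17.8% of all genes. With methionine, Δnhr-114 libraries lay below both WT libraries for 9 of 30 flp, 12 of 65 nlp and 4 of 20 ins genes, and for 9.90% of all genes. The pan-neuronal list summed to 573 and 620 CPM in Δnhr-114 with methionine, against 840 and 718 CPM untreated, and the flp sum to 1370 and 1529 CPM, against 2770 and 1940 CPM.

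The gene with the largest differences was again ins-20. It had 11.4 and 12.6 CPM in untreated Δnhr-114 animals, against 0.217 and 0.759 CPM in untreated WT (3.15 ± 0.57 log2, limma adjusted p = 0.192). With methionine it had 1.28 and 0.286 CPM in Δnhr-114, against 11.4 and 12.6 CPM untreated (-2.92 ± 0.57, limma adjusted p = 0.442), and WT with methionine had 0.915 and 0.720 CPM. The value of 0.720 CPM is 1 read in a library of 1389117 reads, where a count of 0 allows up to 2.16 CPM. Untreated Δnhr-114 thus stood apart from the 6 other libraries of the experiment. For flp-18 the levels were 62.3 and 75.6 CPM in Δnhr-114 with methionine, against 269 and 146 CPM untreated (-1.52 ± 0.32, limma adjusted p = 0.579). Untreated WT had 113.8 and 104.6 CPM and WT with methionine 102 and 90.0 CPM. The gene flp-17 had 20.0 and 20.0 CPM in Δnhr-114 with methionine, against 41.99 and 34.2 CPM untreated (-0.89 ± 0.28, limma adjusted p = 0.999). In the other direction, nlp-24 had 1038 and 1205 CPM in Δnhr-114 with methionine, against 351 and 454 CPM untreated (1.48 ± 0.36, limma adjusted p = 0.701), which was not called. In untreated Δnhr-114, replicate 2 had 5689 CPM of oocyte genes and 684 CPM of cuticle genes, against 468 and 10598 CPM in replicate 1. Their part in these differences was not tested.

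Few genes of the peptide pathway passed the test. Of 11 genes for peptide processing, sbt-1, which encodes the 7B2 chaperone of the proprotein convertase EGL-3, was called higher against WT on nhr-114 RNAi in Δmetr-1 (1.31 ± 0.29 log2, limma adjusted p = 0.00783) and in the double mutant (1.43 ± 0.29, limma adjusted p = 0.00631). Their summed level was 792 and 784 CPM in Δmetr-1 on nhr-114 RNAi and 825 and 833 CPM in the double mutant on nhr-114 RNAi, against 522 and 372 CPM in WT on nhr-114 RNAi. On vector 11 of 11 were higher than in WT in either strain (medians 0.31 and 0.66 log2), with 0 called. Of the dense-core vesicle genes, of which experiment 1 tested 6 and experiment 2 tested 7, 0 were called in any comparison, and unc-108, a RAB-2 homologue of vesicle maturation, was nearest in both strains against WT on nhr-114 RNAi (0.63 and 0.78 log2). The summed level of this list was nevertheless higher, with 877 to 1114 CPM in Δmetr-1 on nhr-114 RNAi, against 525 to 798 CPM on vector. It was 1074 to 1092 CPM in the double mutant on nhr-114 RNAi, against 662 to 704 CPM on vector. In WT on nhr-114 RNAi it was 625 to 668 CPM. Of the pan-neuronal list, the synaptobrevin gene snb-1 was called against WT on nhr-114 RNAi in both strains (0.89 and 1.05 log2) and the syntaxin gene unc-64 in Δmetr-1 (1.49 log2). Of 11 genes of insulin signalling 0 were called in any comparison. The insulin receptor gene daf-2 was nearest in the double mutant against WT on nhr-114 RNAi (1.25 ± 0.30 log2, limma adjusted p = 0.0133).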

How the data were processed

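Messenger RNA of whole animals was read from its 3′ ends in 20 libraries (modified CEL-seq2; the study's methods name Trimmomatic 0.32, STAR and the 3′ end counter ESAT with a WormBase annotation, and describe the 2 libraries of a group as biological replicates). The deposited tables are named TPM, but the authors' values are CPM: each library sums to 1000000 and every value is a whole multiple of 1 step per library (100% within 0.01), from which whole reads were recovered. Whether these were reads or unique molecular identifiers is not stated. Members were matched by gene ID, 140 through the gene name table and 8 through RefSeq. Log2(CPM + 1) was fitted with limma 3.58.1 in R 4.3.3 (trend, robust, 1 mean per group, two-sided) over genes that reached 5 CPM in 2 or more libraries, 10948 and 11543 genes in the 2 experiments, with 4 and 6 residual degrees of freedom and 14 comparisons. This scale understates changes of low genes. P values were adjusted over all genes tested, and calls needed an adjusted p under 0.01 and a fold over 1.5. The fit was tested on simulated data. Alternatives were a pseudocount of 0.5, no filter, the replicate block, edgeR 4.0.16 and DESeq2 1.42.0 on recovered reads, median-of-ratios scaling, the compared libraries alone, stage covariates and leaving out libraries. Members, lists and tests were chosen with earlier results of these data known. Named members were those called, the 6 highest per family, a fixed list, and the smallest p per comparison and family; of pathway lists, called genes or the smallest p. No peptide or promoter sequence was used here.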

Additional observations from a re-analysis of the deposited data

How the results depend on the processing

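With 2 libraries a group, an interval for a single member is wide, and low members such as ins-37 and nlp-4 rest on few reads. The counts of calls depended on the settings, and directions on the stage covariates. The counts below are of members alone. The share of all genes called is not given beside them, so they do not set the members against all genes. For nhr-114 RNAi in Δmetr-1 (17 called), DESeq2 called 47, edgeR 27, the fit without a filter 3 and the fit of the compared libraries alone 0. For nhr-114 RNAi in the double mutant (5 called), DESeq2 called 14, edgeR 2, no filter 2 and the compared libraries alone 0. For Δmetr-1 against WT on nhr-114 RNAi (32 called), DESeq2 called 58, no filter 13 and the compared libraries alone 15. For the double mutant against WT on nhr-114 RNAi (26 called), DESeq2 called 53, no filter 15 and the compared libraries alone 12. Both stage covariates, and leaving out the 3 replicate 1 libraries labelled nhr-114 RNAi (chosen after seeing the data), gave 0 in all 4. Where limma called 0, DESeq2 called 1 member in methionine in Δnhr-114, untreated Δnhr-114 against WT, and each mutant against WT on vector, and 5 in each interaction of the second experiment; the covariates called 1 (nlp-24) for methionine in Δnhr-114, and the compared libraries alone 1 (ins-35) for the double mutant against WT on vector. The cause of these differences was not tested. Leaving out 1 library gave from 0 to 40 calls for nhr-114 RNAi in Δmetr-1, from 0 to 14 in the double mutant, from 3 to 52 for Δmetr-1 and from 2 to 46 for the double mutant against WT, from 0 to 7 for the Δmetr-1 interaction and 0 elsewhere. Median scaling moved the median of all genes for nhr-114 RNAi in Δmetr-1 to 0.02 log2 and edgeR to 0.14, against -0.11, and the member median to 1.20 and 1.33.

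The replicate numbers did not pair the libraries throughout: correlations of same-numbered deviations ran from -0.66 to 0.68. Some groups did go together. In the second experiment the correlation was highest, 0.68, between Δmetr-1 and the double mutant on nhr-114 RNAi. It was lowest, -0.47, between Δmetr-1 on vector and the double mutant on nhr-114 RNAi. With the replicate number as a block the counts were 18, 7, 39 and 33, against 17, 5, 32 and 26, and 0 elsewhere.

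With both stage covariates, many called members changed sign. These were most of the members called for nhr-114 RNAi in Δmetr-1 and for Δmetr-1 against WT on nhr-114 RNAi. For nhr-114 RNAi in Δmetr-1 the changes became -1.60 log2 for flp-18, -1.44 for flp-22, -0.57 for flp-28, -0.96 for flp-3, -1.24 for flp-9, -0.92 for nlp-18, -0.56 for nlp-21, -0.58 for nlp-3, -0.013 for nlp-6, -0.64 for nlp-80 and -1.56 for nlp-9. In the Δmetr-1 interaction, where nlp-21 was not called, its change became -0.54. For Δmetr-1 against WT on nhr-114 RNAi they became -0.58 for flp-18, -0.33 for flp-2, -1.16 for flp-22, -0.45 for flp-24, -0.36 for flp-28, -0.53 for flp-3, -1.39 for flp-32, -2.17 for flp-6, -0.81 for flp-9, -0.88 for nlp-11, -0.26 for nlp-18, -0.47 for nlp-19, -0.11 for nlp-21, -0.50 for nlp-3, -0.38 for nlp-5, -1.78 for nlp-51, -0.11 for nlp-59, -0.50 for nlp-8, -0.65 for nlp-80, -1.5002 for nlp-81 and -0.98 for nlp-9. For the double mutant against WT they became -0.13 for flp-6 and -0.32 for nlp-51.

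Per pan-neuronal RNA, the flp level was 0.53 and 0.36 log2 for nhr-114 RNAi in Δmetr-1 and the double mutant, 0.64 and 0.63 against WT, -0.30 for methionine in Δnhr-114 and -0.034 for untreated Δnhr-114 against WT. The nlp level was 0.17 and -0.027 for nhr-114 RNAi, -0.14 and -0.26 against WT, 0.31 for methionine in Δnhr-114 and -0.18 for untreated Δnhr-114 against WT. The ins level was 0.35 and -0.10 for nhr-114 RNAi, 0.19 and 0.14 against WT, and 0.29 for the double mutant against WT on vector.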
